A study of Mus musculus with 6 samples.

Results

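The 9 genes described here encode proteins of the intestinal tight junction: the claudins Cldn1, Cldn2, Cldn3, Cldn4, Cldn7, Cldn15 and Cldn23, occludin (Ocln) and the scaffold protein ZO-1 (Tjp1). A region of open chromatin, called a peak, was counted as belonging to one of them when its centre lay within 50 kb of an end of the gene and nearer to it than to any other protein-coding gene of the RefSeq GRCm38.p6 annotation. This gave 51 of the 90823 peaks in the table, from 1 at Cldn1 to 10 at Tjp1, by a rule that uses position alone. Of these, 28 lay inside the gene itself, 23 lay outside all genes, and 8 lay within 1 kb of an end of their gene. The nearest gene need not be the gene that a peak regulates.

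The assay was ATAC-seq on organoids grown from mouse intestinal crypts: a transposase inserts sequencing adapters where DNA is accessible. Organoids were kept for 3 days with vehicle, with 25 µM arachidonic acid (AA), the fatty acid from which prostaglandins are made, or with 50 nM prostaglandin E2 (PGE2), so the doses of the lipids differed. The design text names the prostaglandin as a dimethyl derivative and the treatment protocol names it PGE2, and it is left here as labelled. All groups shared a Matrigel culture with N2 and B27 in Advanced DMEM, the growth factors R-spondin, Noggin and EGF, N-acetyl-cysteine, the GSK3 inhibitor CHIR-99021 and the ROCK inhibitor Y-27632. Each group had 2 libraries, each from 50000 sorted epithelial cells. The labels used here name no strain, genotype or age. They do not say whether the 2 libraries of a group came from separate cultures, so p-values measure only the spread between these libraries, which may be technical.

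Totals ran from 12374232 to 14236985 counts per library. Peaks within 1 kb of a gene end, taken as a summed level, were present at 8 of 9 markers of intestinal epithelium (Krt20 had none) and at 0 of 7 stromal markers. They were present at 2 of 6 immune markers, Itgam and Cd68, and were absent at Ptprc, Cd3e and Csf1r among others. The summed epithelial level, in CPM (counts per 1000000 counts of a library), was 535 and 530 under vehicle, 513 and 512 under AA and 526 and 531 under PGE2. Of 10 epithelial peaks, 0 rose and 2 fell with AA, and 2 rose and 1 fell with PGE2, by the test used below. Both immune peaks rose with AA and 1 with PGE2. Of all peaks within 1 kb of a gene end, 14.6% rose and 7.63% fell with AA, and 32% rose and 5.33% fell with PGE2. The vehicle libraries had summed immune levels of 34.4 and 36.2 CPM, the AA libraries 45.8 and 40.1, and the PGE2 libraries 39.8 and 43.7. Of 5 endothelial markers, 2 had such a peak (6.69 to 9.65 in all libraries) and Pecam1, Cdh5 and Tek had none. The AA libraries did not overlap vehicle in either sum, lower in the epithelial and higher in the immune one, and the part of these levels in the results below was not tested. A change in a peak of a mixed culture cannot be told apart from a change in the share of cells that hold it open.

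Tight junctions seal the space between neighbouring epithelial cells and set which ions and molecules pass between them. Claudins are the membrane proteins that form the strands of the junction. Cldn2 and Cldn15 line pores for small cations and water, while Cldn1, Cldn3 and Cldn4 are known mainly as sealing claudins. Occludin is a further strand protein, and ZO-1 ties the strands to the actin skeleton. In the intestine, Cldn2 is known as a crypt claudin, Cldn4 is more abundant toward the surface, and Cldn7 also lies on the lateral membrane.

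The sequence before the start site is shown for 4 claudins whose chromatin behaved differently: Cldn4, whose peaks opened with AA; its neighbour Cldn3; and the pore-forming Cldn15 and Cldn2. Each line gives the 250 bases before the RefSeq start site, 5′ to 3′ on the gene's strand (RefSeq, GRCm38.p6). Capitals mark AP-1 motifs (TGANTCA) and a TATA motif (TATAAA), searched on both strands.
Cldn4, chr5:134946935-134947184, minus strand: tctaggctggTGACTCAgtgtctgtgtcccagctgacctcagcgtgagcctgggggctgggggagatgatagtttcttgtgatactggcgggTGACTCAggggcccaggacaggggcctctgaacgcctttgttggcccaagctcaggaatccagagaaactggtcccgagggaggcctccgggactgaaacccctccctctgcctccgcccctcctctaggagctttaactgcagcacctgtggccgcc
Cldn3, chr5:134985964-134986213, plus strand: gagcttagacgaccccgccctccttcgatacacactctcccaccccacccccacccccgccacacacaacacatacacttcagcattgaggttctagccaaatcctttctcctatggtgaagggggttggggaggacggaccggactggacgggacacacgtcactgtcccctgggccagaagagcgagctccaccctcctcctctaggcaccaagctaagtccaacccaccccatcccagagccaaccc
Cldn15, chr5:136967619-136967868, plus strand: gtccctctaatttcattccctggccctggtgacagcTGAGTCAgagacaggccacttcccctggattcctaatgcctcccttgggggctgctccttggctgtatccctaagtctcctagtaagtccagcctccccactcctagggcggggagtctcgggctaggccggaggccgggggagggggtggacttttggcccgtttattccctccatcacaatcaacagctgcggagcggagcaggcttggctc
Cldn2, chrX:139800558-139800807, plus strand: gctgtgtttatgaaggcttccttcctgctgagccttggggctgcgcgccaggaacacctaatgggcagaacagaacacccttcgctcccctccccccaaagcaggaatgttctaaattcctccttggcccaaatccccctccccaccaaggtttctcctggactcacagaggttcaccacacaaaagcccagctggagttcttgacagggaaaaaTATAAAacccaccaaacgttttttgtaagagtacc

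The AP-1 motifs of Cldn4 began 240 and 158 bases before its start site, that of Cldn15 began 214 bases before, and the TATA motif of Cldn2 began 35 bases before. An AP-1 motif stood in 6.99% of the 21237 promoter windows of protein-coding genes and a TATA motif in 12.6%, over windows from 250 bases before to 50 after a start. The second start site of Cldn7 had a CRE (TGACGTCA, the motif bound by CREB family proteins), which 2.24% of windows held. It is shown here because the peak over it was higher with both lipids by the test used below. A second tool, DESeq2, kept neither call (adjusted p = 0.0935 with AA and 0.138 with PGE2). The PGE2 call was also lost when peaks within 1 kb of a gene end were scaled by themselves.
Cldn7, chr11:69965372-69965401, plus strand: tgtcccttcagTGACGTCAggtcactcgac
A further search on both strands took GGAATG (TEAD, in 13.6% of windows), GGGCGG (SP/KLF, 46.2%) and CAAAGTCCA (HNF4, 0.452%). GGAATG stood in the windows of Cldn15, Cldn2 and the first start of Cldn7, GGGCGG in those of every member in the table but Cldn2, and CAAAGTCCA in none. No motif overlapped another of a different kind in the printed stretches. A match describes letters only and is not a binding site. Peaks of the table covered the start sites of Cldn15, Cldn1, Cldn3, Cldn4, Cldn7, Ocln and Tjp1. Cldn23 was not in the promoter table. None overlapped the window of Cldn2, whose nearest peak was centred 2.59 kb upstream, although 59.0% of all promoter windows were touched by a peak.

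With vehicle the genes differed in how open their peaks were. As CPM per kb of peak over all peaks of a gene, the vehicle libraries gave 67.8 and 70.3 at Cldn3, 56.3 and 58.7 at Cldn15, 50.3 and 52.8 at Ocln, 46.7 and 46.1 at Cldn4, and 45.3 and 44.7 at Cldn7. They gave 35.8 and 37.3 at Cldn2, 26.2 and 25.5 at Cldn23, 21.0 and 21.1 at Tjp1, and 10.1 and 7.98 at Cldn1. Neighbours in this order did not overlap between the vehicle libraries, and the closest pair was Cldn4 and Cldn7. With AA, Cldn4 (60.5 and 57.9) lay above Cldn15 (56.6 and 51.4) and Ocln (53.3 and 54.8), whose ranges overlapped. With PGE2, Cldn4 (51.1 and 49.1) overlapped both Ocln (50.2 and 50.7) and Cldn15 (50.1 and 48.6), which did not overlap each other. Among single peaks, the densest with vehicle were an upstream peak of Cldn4 (81.5 CPM per kb), a peak inside Ocln (80.1) and an upstream peak of Cldn3 (79.7), against a median of 8.51 over all peaks. The gene values above use the smaller library totals of peaks assigned to genes, so they are higher than on this single-peak scale. On the single-peak scale the 1 Cldn1 peak had a vehicle mean of 7.57 CPM per kb.

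AA opened more of these peaks than it closed. All 51 peaks passed the filter on low counts. By edgeR's quasi-likelihood test with Benjamini-Hochberg adjustment over the 89347 peaks tested (threshold 0.05), 20 of 51 differed between AA and vehicle (39.2%, where 30.5% of all peaks did). Of these, 17 were higher with AA, where 16.7% of all peaks were, and 3 were lower (13.8%). The higher peaks lay at Cldn4 (4), Cldn23, Ocln (3 each), Cldn3, Cldn7, Tjp1 (2 each) and Cldn2 (1), and the lower ones at Ocln (2) and Cldn3 (1). The median log2 change was 0.07 over the 51 peaks and -0.02 over all peaks. Most of the changes were small: 15 of the 20 were under 0.5 on the log2 scale. Most of the 51 peaks were denser with vehicle than the median peak (8.51 CPM per kb), and small changes pass more easily at high counts. The shares of members and of all peaks, here and below, therefore compare peaks of unlike counts.

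Fewer of them passed with PGE2. Between PGE2 and vehicle 11 of 51 peaks differed (21.6%, against 24.9% of all peaks), 9 higher (14.3% of all peaks) and 2 lower (10.6%), with a median log2 change of -0.00 over the members and over all peaks. Both lower peaks lay upstream of Cldn3. Both comparisons use the same vehicle libraries, so they are not independent. Between AA and PGE2, 9 of 51 peaks differed (17.6%, against 9.95% of all peaks), all 9 higher with AA (5.06%) and 0 lower (4.88%). All 9 lay farther than 1 kb from a gene end. Of the 74894 such peaks tested in the whole table, 4303 were higher with AA and 1948 lower. Over the 51 peaks, edgeR gave 20 higher and 3 lower in this comparison at an unadjusted p under 0.05. DESeq2 called 0 of 51 in that comparison and gave 7 at an unadjusted p under 0.05. It gave no adjusted p there for the Tjp1 peak 111 kb upstream, which it therefore could not call. The plot of log2 changes at all 51 peaks shows each of them.

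**Figure D1:**
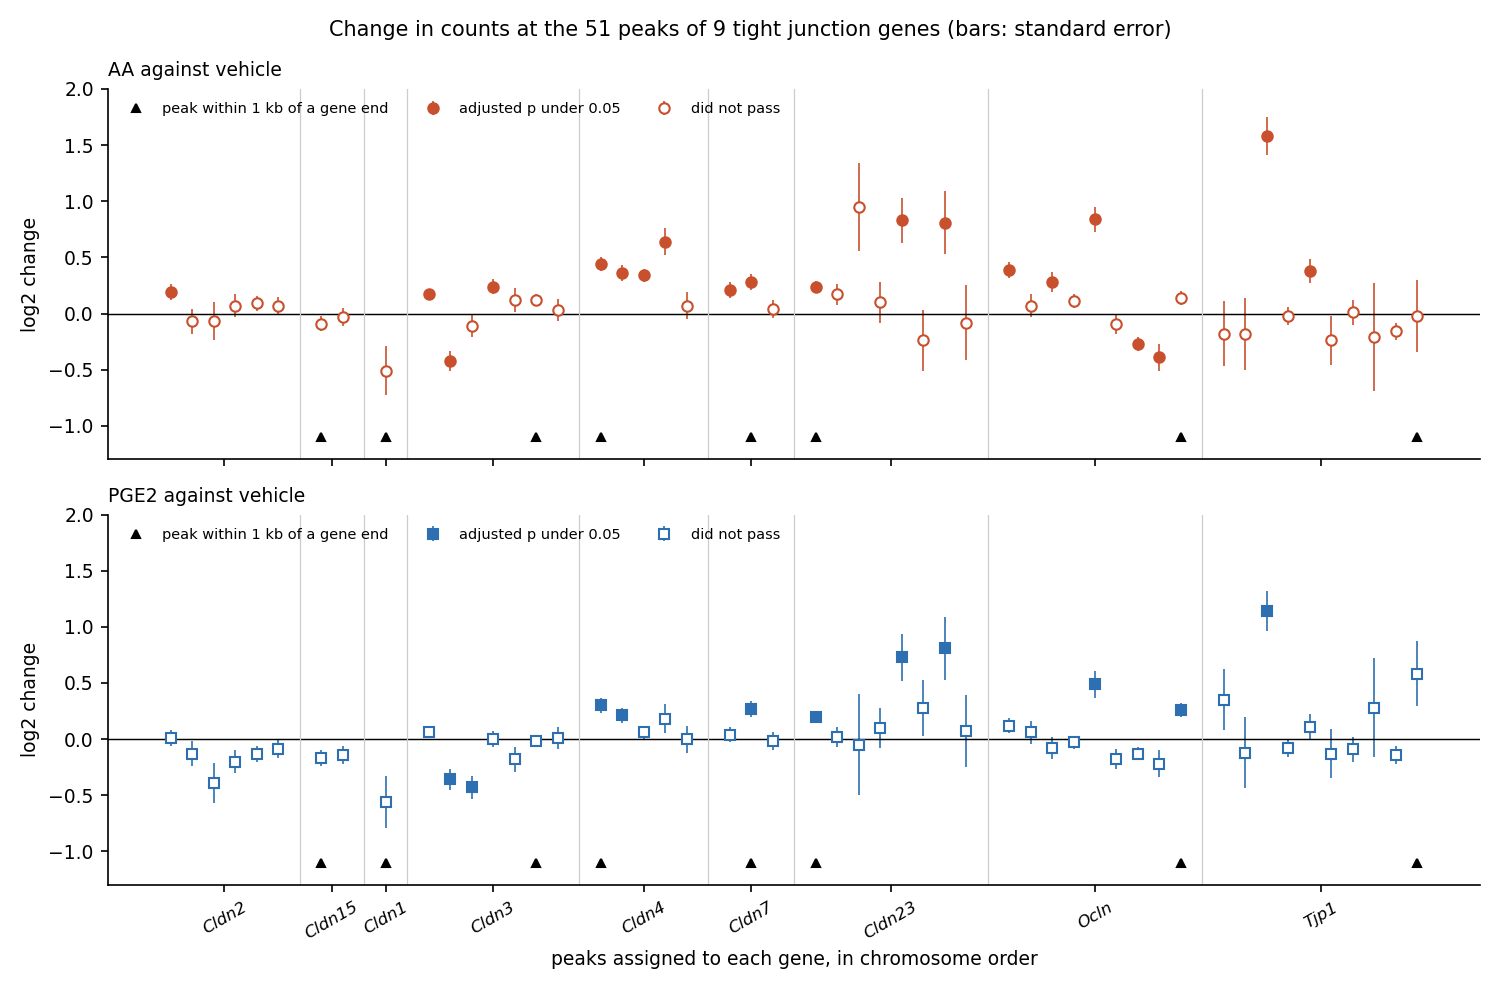
Each point is the log2 change of 1 peak with its standard error (vertical axis, no unit), for AA against vehicle (circles) and PGE2 against vehicle (squares). Genes are ordered by role, and the peaks of each gene are in chromosome order. Filled points passed an adjusted p of 0.05 and triangles mark peaks within 1 kb of a gene end. The 5 filled points above 0.5 with AA lie at Cldn4, Cldn23, Ocln and Tjp1, the highest at 1.58.

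Of the 40 calls over the 3 comparisons, 16 were kept when any 1 library was left out, and the libraries that ended the others are named gene by gene below. DESeq2 was stricter. It gave an adjusted p for 39 of the 40 and kept 8: the AA calls at 4 Cldn4 peaks, at the Ocln peaks 35.6 kb and 16.1 kb into the gene and at the Tjp1 peak 111 kb upstream, and the PGE2 call at that Tjp1 peak. For the other 31 its adjusted p lay between 0.0613 and 0.359.

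The pore-forming claudins held 2 of the 40 calls, both at Cldn2. It had 6 peaks, with log2 changes from -0.07 to 0.19 with AA and from -0.39 to 0.01 with PGE2. Its peak 6.38 kb upstream (chrX:139793884-139794983) had 36.5 and 37.8 CPM in the vehicle libraries, 41.9 and 42.7 in the AA libraries and 36.5 and 38.5 in the PGE2 libraries. The AA libraries were above all others, by 0.19 ± 0.07 (SE) on the log2 scale against vehicle (edgeR adjusted p = 0.0430). This call was lost without either vehicle library and without either AA library (adjusted p 0.103 to 0.211). The peak inside the gene 5.33 kb from the start (chrX:139806005-139806281) had 5.59 and 6.26 CPM under vehicle, 6.05 and 5.14 under AA and 5.11 and 3.94 under PGE2. PGE2 was lowest there, yet its change of -0.39 ± 0.18, the Cldn2 peak with the smallest p in that comparison, did not pass (edgeR adjusted p = 0.108).

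Downstream of Cldn2, the peak 12.3 kb from the start (chrX:139812561-139813563) had 41.4 and 43.3 CPM with vehicle, against 44.5 and 45.6 with AA and, with PGE2, 38.8 and 38.5. The vehicle libraries lay between the treatments, with no overlap of any groups. AA was higher than PGE2 by 0.22 ± 0.07 (edgeR adjusted p = 0.0345). The call was kept only without vehicle replicate 1: it was lost without vehicle replicate 2, without either AA library and without either PGE2 library (adjusted p 0.0550 to 0.191), and with scaling done apart for gene-end peaks (0.0509).

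Cldn15, the other pore-forming claudin, had 2 peaks and no call in any comparison with TMM scaling over all 6 libraries. The start site peak (chr5:136966928-136968091) had 47.9 and 51.7 CPM in the vehicle libraries, 48.8 and 44.5 in the AA libraries and 43.2 and 45.4 in the PGE2 libraries. The PGE2 libraries lay below vehicle and overlapped AA, with a log2 change of -0.17 ± 0.07 against vehicle (edgeR adjusted p = 0.0626) and of -0.09 ± 0.07 for AA (0.313). The PGE2 change passed with library totals (-0.22, 0.0124), with the 2 groups fitted alone (-0.18, 0.0465) and with scaling done apart for gene-end peaks (-0.35, 7.02e-05). The second peak, inside the gene 2.88 kb from the start (chr5:136970427-136971062), had 37.2 and 36.8 CPM under vehicle, 37.8 and 34.7 under AA and 34.9 and 32.2 under PGE2. There the difference between AA and PGE2, with the smaller p of the gene in that comparison, was 0.11 ± 0.08 and did not pass (edgeR adjusted p = 0.397).

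Among the sealing claudins, Cldn1 had 1 weak peak, at its start site (chr16:26371439-26371963). It held 4.44 and 3.51 CPM with vehicle, against 2.67 and 2.94 with AA and, with PGE2, 3.05 and 2.31. Both vehicle libraries were above the other 4. The log2 changes of -0.51 ± 0.22 with AA and -0.56 ± 0.23 with PGE2 did not pass (edgeR adjusted p = 0.0788 and 0.0599), and AA and PGE2 differed by 0.06 ± 0.24 (0.918). Scaled apart for gene-end peaks, both changes passed (-0.56, 0.0465, and -0.74, 0.0107), and with library totals that of PGE2 did (-0.61, 0.0384).

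Cldn3 and Cldn4 are neighbours on chromosome 5, transcribed away from each other from start sites 39.3 kb apart, and 12 of the 51 peaks belong to them. Toward Cldn4 the peaks rose with AA, and toward Cldn3 the changes were mixed. The last peak assigned to Cldn4 and the first assigned to Cldn3 have centres 1262 bases apart, so the line between the 2 genes is only one of distance. The plot of these 12 peaks by distance from the Cldn4 start site shows the pattern.

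**Figure D2:**
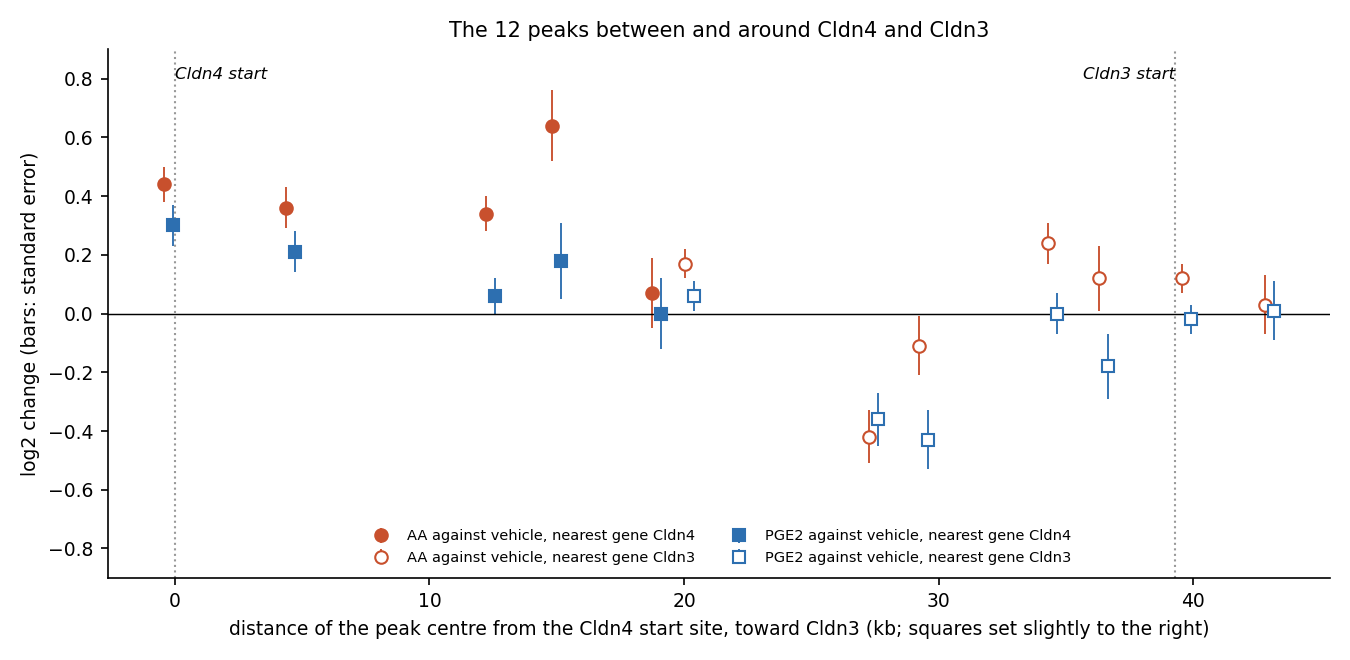
Log2 change with its standard error (vertical axis) at the 12 peaks between and around Cldn4 and Cldn3 against the distance of the peak centre from the Cldn4 start site (horizontal axis, kb), for AA (circles) and PGE2 (squares) against vehicle; filled points are nearest to Cldn4 and open points to Cldn3, and dotted lines mark the start sites. The first 4 Cldn4 peaks lie between 0.34 and 0.64 with AA, and the lowest points belong to the Cldn3 peaks at 27.45 and 29.42 kb.

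At Cldn4, 4 of 5 peaks rose with AA and 2 with PGE2. The start site peak (chr5:134945821-134947545), which holds both printed AP-1 motifs, had 47.9 and 45.9 CPM in the vehicle libraries, 66.4 and 60.3 in the AA libraries and 59.1 and 56.0 in the PGE2 libraries. All 4 treated libraries were above both vehicle libraries, and AA lay above PGE2 without overlap. The rise was 0.44 ± 0.06 with AA (edgeR adjusted p = 6.66e-07) and 0.30 ± 0.07 with PGE2 (0.000512), and AA and PGE2 differed by 0.14 ± 0.06, which did not pass (0.158). With scaling done apart for gene-end peaks, the difference between the lipids was 0.26, which passed (edgeR adjusted p = 0.00427), the AA rise was 0.38 and the PGE2 change was 0.12, which no longer passed (adjusted p = 0.169).

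Upstream of Cldn4, the peak at 15.0 kb (chr5:134961794-134962049) had 9.19 and 9.69 CPM under vehicle, 15.3 and 14.2 under AA and 10.5 and 10.8 under PGE2. AA was well above both other groups, and PGE2 was slightly above vehicle. AA raised it by 0.64 ± 0.12 against vehicle (edgeR adjusted p = 3.42e-05), the largest change of the 12 peaks, and by 0.47 ± 0.12 against PGE2 (0.00593), a call lost without AA replicate 1 (0.0999). PGE2 changed it by 0.18 ± 0.13 (0.336).

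The dense peak 12.4 kb upstream (chr5:134959025-134959646) had 52.4 and 49.1 CPM with vehicle, against 63.0 and 65.9 with AA and, with PGE2, 53.5 and 52.2. Here PGE2 overlapped vehicle and AA stood above both, by 0.34 ± 0.06 against vehicle (edgeR adjusted p = 2.52e-05) and by 0.28 ± 0.06 against PGE2 (0.00181). The peak 4.53 kb upstream (chr5:134950986-134951948) had 34.6 and 38.3 CPM in the vehicle libraries, 47.9 and 45.5 in the AA libraries and 41.4 and 43.1 in the PGE2 libraries. It rose by 0.36 ± 0.07 with AA (1.11e-04) and by 0.21 ± 0.07 with PGE2 (0.0248), the latter lost without vehicle replicate 1, without PGE2 replicate 2 (0.110 to 0.342) and with library totals as scaling. The 4 AA calls at Cldn4 were kept under every alternative run. The fifth peak, 18.9 kb upstream, changed by 0.07 with AA and did not pass.

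At Cldn3, the start site peak (chr5:134985596-134987754) was among the strongest of the members, with 118 and 124 CPM under vehicle, 131 and 132 under AA and 116 and 123 under PGE2. The AA libraries were above the other 4, but the changes of 0.12 ± 0.05 against vehicle and 0.14 ± 0.05 against PGE2 did not pass (edgeR adjusted p = 0.0533 and 0.0501). Scaled apart for gene-end peaks, the AA change was 0.06 (0.336), PGE2 was lower than vehicle by -0.20 (0.00102), and AA was higher than PGE2 by 0.26 (1.15e-04). With median-ratio size factors both the AA change (0.0327) and the difference between the lipids (0.0284) passed. Both also passed with the replicate number as a block (edgeR adjusted p = 0.0442 and 0.0402). The AA change passed with the 2 groups fitted alone (0.0168), and the difference with library totals (0.0214) and without the filter on low counts (0.0499). Farther upstream, 2 peaks closed. The peak 11.8 kb upstream (chr5:134973963-134974812) had 28.4 and 27.2 CPM with vehicle, against 20.7 and 21.0 with AA and, with PGE2, 22.7 and 20.5. All treated libraries were below vehicle, by 0.42 ± 0.09 with AA (log2 change -0.42, edgeR adjusted p = 3.32e-04) and by 0.36 ± 0.09 with PGE2 (-0.36, 0.00205), and both calls were kept without any 1 library.

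The next peak toward the gene, 9.87 kb upstream (chr5:134976077-134976621), had 23.0 and 20.5 CPM in the vehicle libraries, 20.5 and 19.8 in the AA libraries and 17.2 and 15.2 in the PGE2 libraries. Only PGE2 fell clearly below the rest, with a log2 change of -0.43 ± 0.10 against vehicle (edgeR adjusted p = 0.00128), lost without vehicle replicate 1 (0.0548). AA exceeded PGE2 there by 0.32 ± 0.10 (0.0386), a call lost without vehicle replicate 2, without either AA library and without PGE2 replicate 2 (0.0541 to 0.251). The other AA calls of the gene were 2 rises. The peak 19.1 kb upstream (chr5:134966304-134967955), the one next to the Cldn4 group, had 128 and 135 CPM under vehicle, 148 and 148 under AA and 140 and 135 under PGE2.

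AA stood above both other groups at that 19.1 kb peak, by 0.17 ± 0.05 against vehicle (edgeR adjusted p = 0.00474, lost without vehicle replicate 1, 0.123). The difference of 0.11 ± 0.05 from PGE2 did not pass (0.15). The peak 4.80 kb upstream (chr5:134981079-134981739) had 39.2 and 38.0 CPM with vehicle, against 47.6 and 43.2 with AA and, with PGE2, 38.5 and 38.6. PGE2 lay within the vehicle range, and AA was higher by 0.24 ± 0.07 against either group (edgeR adjusted p = 0.00861 and 0.0237). The call against vehicle was lost without vehicle replicate 2 or AA replicate 1 (0.102 and 0.177), and the call against PGE2 without AA replicate 1 (0.305). The remaining 2 peaks, 2.82 kb upstream and 3.72 kb downstream of the start, passed no test, with AA changes of 0.12 and 0.03.

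**Figure D3:**
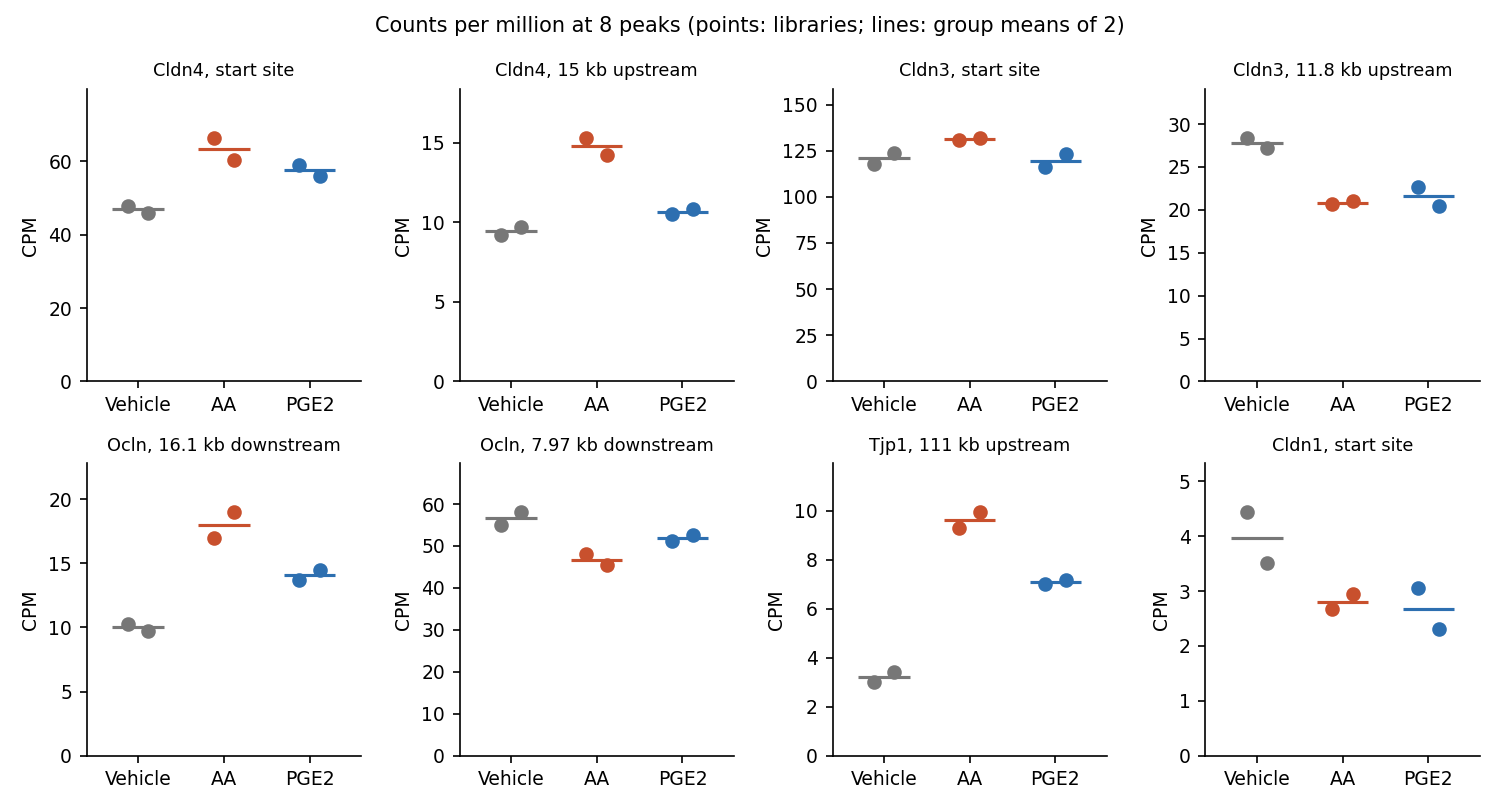
CPM (vertical axes, each from 0) at 8 peaks in the 6 libraries; points are libraries and lines the means of 2, and each panel's title gives the gene and the distance of the peak from its start site. At the Cldn4, Ocln (16.1 kb) and Tjp1 peaks both AA libraries lie above both vehicle libraries, and at the Cldn3 peak 11.8 kb upstream and the Ocln peak at 7.97 kb they lie below.

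Cldn7, which also serves cell adhesion at the lateral membrane, had 3 peaks, of which 2 rose with AA and 1 with PGE2. The peak over its start sites (chr11:69964740-69965724), which covers the printed CRE, had 40.7 and 40.6 CPM in the vehicle libraries, 48.4 and 50.6 in the AA libraries and 47.7 and 50.5 in the PGE2 libraries. The treatments overlapped each other and lay above vehicle. The rise was 0.28 ± 0.07 with AA (edgeR adjusted p = 0.00106) and 0.27 ± 0.07 with PGE2 (0.00202). With scaling done apart for gene-end peaks they were 0.22, which passed, and 0.10, which did not (adjusted p = 0.301).

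Upstream of Cldn7 by 3.18 kb, a second peak (chr11:69961040-69962156) had 42.9 and 43.3 CPM under vehicle, 51.7 and 48.1 under AA and 46.0 and 42.4 under PGE2. AA was above vehicle and PGE2 overlapped it. AA raised this peak by 0.21 ± 0.07 (edgeR adjusted p = 0.0149), a call lost without either vehicle library or AA replicate 1 (0.0837 to 0.18), and differed from PGE2 by 0.17 ± 0.07, which did not pass (0.0964).

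Cldn23, a less studied claudin, had 8 peaks, 1 at the gene and 7 outside it, and 3 of them rose with each lipid. The gene's own peak (chr8:35825559-35827140) had 87.4 and 79.3 CPM with vehicle, against 96.1 and 101 with AA and, with PGE2, 96.6 and 95.1. All treated libraries exceeded vehicle, by 0.24 ± 0.05 with AA (edgeR adjusted p = 5.13e-04) and 0.20 ± 0.05 with PGE2 (0.00447). Both calls were lost without vehicle replicate 2 (0.0736 and 0.208), and scaled apart from other peaks the gene-end peak changed by 0.18 with AA and by 0.03 with PGE2 (0.753).

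The distal peaks of Cldn23 were weak, from 0.613 to 5.49 CPM in 6 of 7. The peak 28177 bases from the gene (chr8:35854391-35855082) had 2.45 and 3.28 CPM in the vehicle libraries, 5.21 and 4.98 in the AA libraries and 4.43 and 5.09 in the PGE2 libraries. It rose by 0.83 ± 0.20 with AA (edgeR adjusted p = 0.00139) and 0.73 ± 0.21 with PGE2 (0.00698); the former was lost without vehicle replicate 1 (0.0554) and the latter also without PGE2 replicate 2 (0.0723 to 0.146). The peak 39418 bases away (chr8:35865807-35866147) had 1.61 and 1.45 CPM under vehicle, 2.96 and 2.37 under AA and 2.98 and 2.39 under PGE2.

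That farther peak rose by 0.81 ± 0.28 with either lipid (edgeR adjusted p = 0.0257 and 0.0306), and the treated libraries again did not overlap vehicle. Both calls were lost without either vehicle library, the AA call without AA replicate 1 (0.0760 to 0.226) and the PGE2 call without PGE2 replicate 1 (0.0935 to 0.213). Between AA and PGE2 no Cldn23 peak passed with all peaks scaled together. The smallest p belonged to the peak 15949 bases away (chr8:35842389-35842628), with 0.613 and 1.3 for vehicle, 1.90 and 1.79 for AA, and 1.14 and 0.694 for PGE2, a difference of 1.00 ± 0.39 (0.1).

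Ocln changed in both directions with AA, within the gene: 3 of its 9 peaks rose and 2 fell. The peak 16.1 kb into the gene (chr13:100536070-100536636) had 10.3 and 9.69 CPM with vehicle, against 17.0 and 19.0 with AA and, with PGE2, 13.7 and 14.5. The 3 groups were separate, in the order vehicle, PGE2, AA. It rose by 0.84 ± 0.11 with AA (edgeR adjusted p = 1.3e-07) and by 0.49 ± 0.12 with PGE2 (0.00159). AA exceeded PGE2 by 0.35 ± 0.11 (0.0293), a call lost without either AA library and without PGE2 replicate 1 (0.0523 to 0.275).

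Deeper in Ocln, 35.6 kb from the start, a dense peak (chr13:100516670-100517145) had 36.2 and 37.1 CPM in the vehicle libraries, 46.3 and 49.8 in the AA libraries and 39.8 and 40.1 in the PGE2 libraries. AA raised it by 0.39 ± 0.07 (edgeR adjusted p = 2.43e-05) and stood above PGE2 by 0.26 ± 0.07 (0.00940, lost without AA replicate 2, 0.159). The peak at 30.4 kb (chr13:100521826-100522413) had 20.8 and 22.0 CPM under vehicle, 24.3 and 28.0 under AA and 19.9 and 20.7 under PGE2. AA was highest, by 0.28 ± 0.09 against vehicle (0.0162) and 0.36 ± 0.09 against PGE2 (0.00868), the smallest p of the gene in that comparison. The former was lost without either vehicle library or AA replicate 2 (0.0534 to 0.275), the latter without AA replicate 2 (0.210).

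The 2 Ocln peaks that fell with AA lie near each other. The one 7.97 kb into the gene (chr13:100544173-100544879) had 55.1 and 58.1 CPM with vehicle, against 48.1 and 45.4 with AA and, with PGE2, 51.1 and 52.5, and AA was below both others. Its log2 change was -0.27 ± 0.06 with AA (edgeR adjusted p = 8.79e-04), kept without any 1 library. The peak 6.80 kb into the gene (chr13:100545517-100545871) had 13.9 and 16.7 CPM in the vehicle libraries, 11.9 and 11.4 in the AA libraries and 12.1 and 14.1 in the PGE2 libraries. AA was lowest, with a change of -0.39 ± 0.12 (0.00966), lost without vehicle replicate 2 or AA replicate 2 (0.0767 and 0.241).

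At the Ocln start sites the order of the lipids was the other way round when all peaks were scaled together. That peak (chr13:100551143-100553411) had 53.7 and 55.8 CPM under vehicle, 59.2 and 61.2 under AA and 63.7 and 67.3 under PGE2. PGE2 was highest, and no groups overlapped. The rise passed with PGE2 (0.26 ± 0.06, edgeR adjusted p = 0.00114, lost without vehicle replicate 1, 0.0512) and not with AA (0.14 ± 0.06, 0.0890), and AA and PGE2 differed by -0.12 ± 0.06, which did not pass (0.205). With scaling done apart for gene-end peaks, the change was 0.08 with PGE2 (0.329) and 0.08 with AA (0.352). The lipids then differed by -0.01 (0.966), so their order depended on the scaling.

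The calls at the 8 members' peaks within 1 kb of a gene end depended on how such peaks were scaled. With PGE2, 4 of the 8 rose, at Cldn4, Cldn7, Cldn23 and Ocln, and 37.4% of the 14453 gene-end peaks tested changed, 32% upward, with a median log2 change of 0.14 against -0.03 for peaks farther away. Of the 8, 5 were above 0 and 3 below. When gene-end peaks were scaled by themselves none of the 4 rises held, and 3 peaks were called lower, at Cldn15, Cldn1 and Cldn3. With AA, 3 of the 8 rose (22.2% of gene-end peaks changed, 14.6% upward and 7.63% downward), and those at Cldn4, Cldn7 and Cldn23 held under that scaling. Between AA and PGE2, 0 of 8 differed by edgeR's adjusted p, while 18.2% of all gene-end peaks did (1.52% higher and 16.7% lower with AA); 4 of 8 had an unadjusted p under 0.05 (2 higher and 2 lower with AA), and DESeq2 gave 0 by either p. Scaled by themselves, 3 were called higher with AA than with PGE2, at Cldn3, Cldn4 (0.26, edgeR adjusted p = 0.00427) and Cldn23 (0.16, 0.0433).

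Tjp1 held the largest change of the set. Its peak 111 kb upstream of the start site in the promoter table, inside the annotated gene (chr7:65482196-65482507), had 2.99 and 3.43 CPM with vehicle, against 9.29 and 9.95 with AA and, with PGE2, 7.02 and 7.18. The 3 groups were far apart relative to the spread within each. The rise was 1.58 ± 0.17 with AA (edgeR adjusted p = 3.57e-10), or 2.98-fold, and 1.14 ± 0.18 with PGE2 (3.15e-06), and both were kept under every alternative run. AA exceeded PGE2 by 0.44 ± 0.14 (0.0369), lost without either AA or either PGE2 library (0.0997 to 0.201).

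A second Tjp1 peak, 115 kb upstream (chr7:65486233-65486898), had 13.5 and 14.3 CPM in the vehicle libraries, 18.6 and 17.6 in the AA libraries and 15.4 and 14.6 in the PGE2 libraries. AA was above all other libraries, by 0.38 ± 0.11 against vehicle (edgeR adjusted p = 0.00452, lost without vehicle replicate 1 or AA replicate 1, 0.0593 and 0.0632). The difference of 0.27 ± 0.10 from PGE2 did not pass (0.0889). Between this peak and the one 111 kb upstream, the peak 113 kb upstream, with 33.2 to 35.8 CPM in the 6 libraries, did not pass in any comparison. The peak within 1 kb of the gene's upstream end (chr7:65526769-65527665) had 2.37 and 1.22 CPM under vehicle, 1.48 and 2.12 under AA and 2.59 and 2.78 under PGE2, and its PGE2 change of 0.58 ± 0.29 did not pass (0.146). The other 6 assigned peaks passed no test.

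Because Tjp1 is long and its start site in the promoter table lies 75079 bases from the nearer annotated end, a further 14 peaks inside the gene fall outside the 50 kb rule. They were looked at after their values were known. Of these 14, 5 rose with AA and 0 fell (35.7% called, against 30.5% of all peaks), and 3 rose with PGE2 and 0 fell (21.4% against 24.9%). Of the AA calls 3 were lost without some 1 library and DESeq2 kept 2, and of the PGE2 calls all 3 were lost without some 1 library and DESeq2 kept 1. The peak over the start site (chr7:65370239-65371644) had 11.4 and 10.5 CPM with vehicle, against 13.4 and 12.6 with AA and, with PGE2, 16.6 and 26.5. The PGE2 libraries differed widely from each other, and the rise of 0.98 ± 0.24 (edgeR adjusted p = 0.0305) was lost without either vehicle or either AA library (0.0883 to 0.169), while DESeq2 gave an adjusted p of 0.000295. A dense peak upstream of it (chr7:65467225-65468754) had 61.9 and 58.8 CPM in the vehicle libraries, 79.4 and 80.7 in the AA libraries and 63.5 and 61.6 in the PGE2 libraries. AA stood apart from both, by 0.41 ± 0.06 against vehicle (2.92e-07) and 0.36 ± 0.06 against PGE2 (5.09e-05), and both calls were kept without any 1 library.

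**Figure D4:**
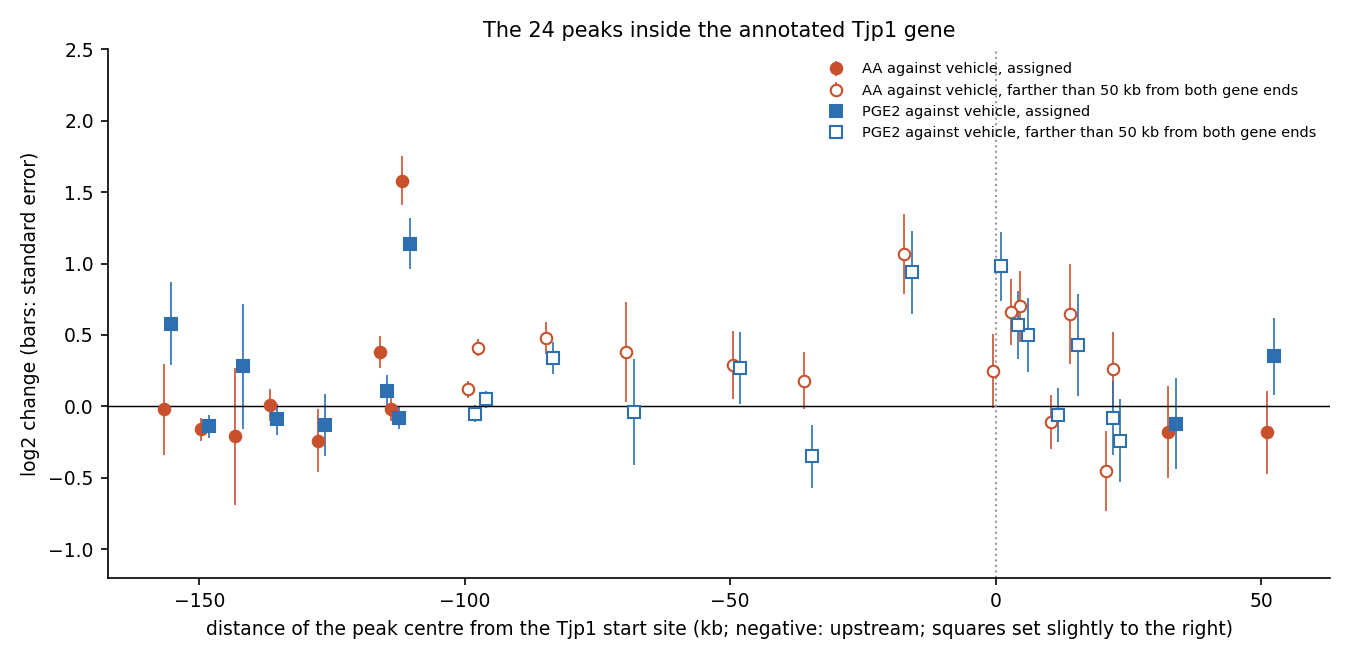
Log2 change with its standard error (vertical axis) at the 24 peaks inside the annotated Tjp1 gene against distance from the start site in the promoter table (horizontal axis, kb, negative upstream), for AA (circles) and PGE2 (squares) against vehicle; filled points are the 10 assigned peaks and open points the 14 beyond 50 kb of both gene ends. The pair of filled points 111 kb upstream, at 1.58 and 1.14, is the highest.

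Adding up the counts of all peaks of a gene gave 1 value per gene, in which dense peaks weigh most. With AA, 4 of the 9 genes were higher (Cldn4, Cldn23, Cldn7 and Cldn3) and 0 lower (1 at an unadjusted p under 0.05, and 0 by DESeq2), where 32.3% of the 16785 genes tested changed, 16.3% upward. Cldn4 rose by 0.35 ± 0.04 on the log2 scale, from 187 and 184 CPM with vehicle to 242 and 232 with AA (edgeR adjusted p = 9.51e-07). Cldn23 rose by 0.22 ± 0.04, from 144 and 141 to 165 and 168 (2.44e-04). Cldn7 rose by 0.17 ± 0.04, from 142 and 140 to 163 and 153 (0.00564, lost without vehicle replicate 2 or AA replicate 1, 0.0613 and 0.115), and Cldn3 by 0.08 ± 0.03 (0.0427, lost without any 1 of the vehicle and AA libraries, 0.0505 to 0.297). The Cldn3 call was also lost with library totals (edgeR adjusted p = 0.141), over peaks within 10 kb (0.107) and by DESeq2 (0.144).

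With PGE2, 6 of 9 genes differed (38.5% of all genes), 2 higher and 4 lower (20.8% and 17.7% of all genes). DESeq2 called 2 of them, Cldn2 and Cldn15, both lower, and 0 higher (2 higher at an unadjusted p under 0.05), and gave no adjusted p for Cldn1. The lower ones included both pore-forming claudins. Cldn2 had 175 and 182 CPM under vehicle, 184 and 189 under AA and 160 and 158 under PGE2, and Cldn15 had 101 and 106, 102 and 92.5, and 90.2 and 87.5. The log2 changes with PGE2 were -0.17 ± 0.04 at Cldn2 (edgeR adjusted p = 0.00207) and -0.22 ± 0.05 at Cldn15 (0.00384, lost without vehicle replicate 2, 0.0665). Cldn1 changed by -0.63 ± 0.23 (0.0373) and Cldn3 by -0.10 ± 0.03 (0.00986). The Cldn1 sum is its 1 peak, which did not pass among peaks (-0.56 ± 0.23, edgeR adjusted p = 0.0599). Both results use the same counts, with another scaling and another set to adjust over. Cldn23 rose by 0.13 ± 0.04 (0.0149, lost without either vehicle library, 0.0523 and 0.150, and over peaks within 10 kb, 0.159) and Cldn4 by 0.11 ± 0.04 (0.0229, lost without either vehicle library or PGE2 replicate 1, 0.0930 to 0.163).

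These PGE2 values depend on the scaling. With the scaling factors of the peak table, an alternative added after the values were seen, the median over all genes moved from -0.007 to 0.056 on the log2 scale and the members lower with PGE2 went from 4 to 2. Cldn2 changed by -0.10 (edgeR adjusted p = 0.0429) and Cldn15 by -0.16 (0.0335), while Cldn1 (-0.56, 0.0615) and Cldn3 (-0.04, 0.304) did not pass. The Cldn1 call was also lost without either vehicle or either AA library and without PGE2 replicate 2 (0.0508 to 0.266), and that of Cldn3 without vehicle replicate 2 or PGE2 replicate 2 (0.0624 and 0.133).

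Between AA and PGE2, 4 of 9 genes differed (17.6% of all genes), all higher with AA (8.67% of all genes) and 0 lower (8.97%), also at an unadjusted p under 0.05 and by DESeq2. These were Cldn4 (0.24 ± 0.04, edgeR adjusted p = 2.46e-04), Cldn2 (0.23 ± 0.04, 6.24e-04), Cldn3 (0.18 ± 0.03, 5.37e-04) and Ocln (0.10 ± 0.03, 0.0301). Cldn2 had AA above and PGE2 below vehicle, with no overlap of AA with PGE2. Its change with AA against vehicle, 0.06 ± 0.04, did not pass (edgeR adjusted p = 0.208). The Ocln call was lost without either AA library (0.0953 and 0.206), with the peak table's scaling (0.06, 0.221), with library totals (0.0603) and by DESeq2 (0.149), and over peaks within 10 kb the difference was -0.02 (0.759). Tjp1 passed in no comparison by its sum, although it holds the peak with the largest change: its 10 peaks summed to 130 and 130 CPM with vehicle, against 136 and 133 with AA and, with PGE2, 126 and 124. With peaks assigned to the gene whose body holds them, the Tjp1 sum was higher with AA than with vehicle by 0.19 (edgeR adjusted p = 2.54e-05) and than with PGE2 by 0.17 (0.000402).

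**Figure D5:**
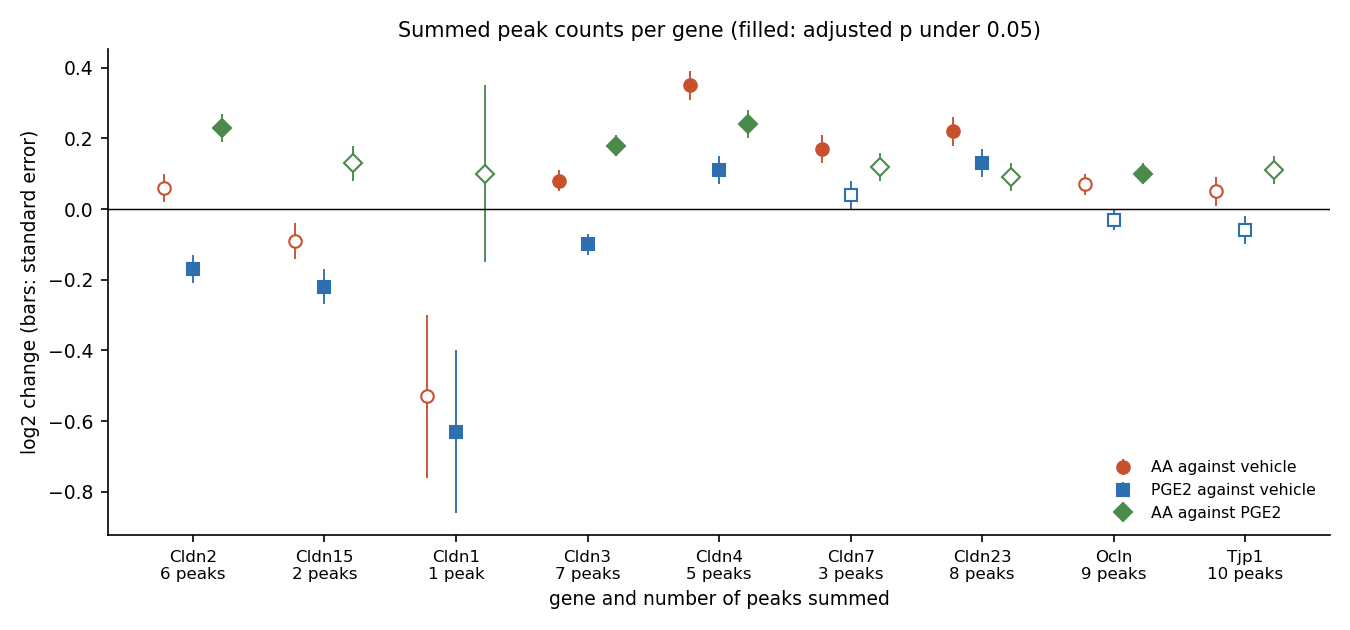
Log2 change of the summed peak counts of each gene with its standard error (vertical axis), for AA against vehicle (circles), PGE2 against vehicle (squares) and AA against PGE2 (diamonds), with the number of peaks summed under each gene (horizontal axis); filled points passed an adjusted p of 0.05. Cldn4 is highest with AA at 0.35, and with PGE2 Cldn2, Cldn15, Cldn1 and Cldn3 are filled below 0.

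For comparison, 38 other tight junction genes were looked up, of which 37 were in the gene table and 32 had a peak, 250 peaks in all, 244 of them tested. With AA 55 rose and 17 fell (29.5%), with PGE2 42 rose and 10 fell (21.3%), and between AA and PGE2 23 were higher and 5 lower (11.5%). By direction this is 22.5% higher and 6.97% lower with AA, 17.2% and 4.1% with PGE2, and 9.43% and 2.05% between AA and PGE2, beside the shares of all peaks given above. The peaks named here had the 3 smallest p in their direction and comparison, 1 per gene. At F11r, which encodes the junctional adhesion molecule JAM-A, a peak 5965 bases from the gene (chr1:171469757-171471360) had 13.2 and 14.9 CPM under vehicle, 36.2 and 37.6 under AA and 27.5 and 24.6 under PGE2. Its log2 change was 1.40 ± 0.09 with AA (edgeR adjusted p = 2.77e-15) and 0.89 ± 0.10 with PGE2 (2.28e-09).

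At Jam2, a related adhesion molecule, a peak inside the gene changed by 1.66 ± 0.16 and 1.14 ± 0.17 with AA and PGE2, and at Cldn10, a further ion pore claudin, a distal peak changed by 1.43 ± 0.14 and 0.81 ± 0.15. Inside Prkci, the atypical protein kinase C of the polarity complex, a peak rose by 2.03 ± 0.22 with AA and by 1.71 ± 0.23 with PGE2. Falls were found inside Mylk, the myosin light chain kinase (-1.43 ± 0.19 and -1.12 ± 0.18), near the adhesion molecule gene Jam3 (-0.70 ± 0.13 and -0.51 ± 0.13) and within 1 kb of an end of Cldn8, a sealing claudin (-0.58 ± 0.12 and -0.48 ± 0.12). All of these passed edgeR's test against vehicle for both lipids (adjusted p at most 0.00277). A peak 20170 bases from Cldn8 fell with PGE2 (-0.35 ± 0.08, 0.00128) and not with AA (-0.13 ± 0.08, 0.232).

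Between the lipids, a peak 33167 bases from Cxadr, which encodes the adhesion protein CAR, was higher with AA than with PGE2 by 0.30 ± 0.06 (edgeR adjusted p = 5.25e-04). At 3 genes of the polarity complexes, the gene-end peaks were lower with AA than with PGE2: Prkci (-0.42 ± 0.09, 0.00102), Patj (-0.48 ± 0.10, 0.00276) and Pard6b (-0.34 ± 0.08, 0.00293). In each the vehicle and AA means were close, at 23.9 and 23.9 CPM for Prkci, 19.2 and 20.9 for Patj, and 39.7 and 43.9 for Pard6b, and PGE2 was higher, at 32.0, 29.1 and 55.7. Of all gene-end peaks, 16.7% were lower with AA than with PGE2 and 1.52% higher, so this order is not particular to these genes. Over all peaks of each gene, 2 were called higher with AA and 1 lower at Prkci, 2 and 1 at Patj, and 3 and 1 at Pard6b.

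The genes whose summed counts followed each member most closely over the 6 libraries were found by Pearson's r of log2 CPM among 16691 genes, as a description over 6 libraries that share 3 treatments. They were Rnf32 and Ifne for Cldn2 (r = 0.998 and 0.996), Gcdh and Mrln for Cldn15 (0.995 and 0.995), Cpne8 and Pax9 for Cldn1 (0.993 and 0.992), and Ido2 and Gcgr for Cldn3 (0.998 and 0.997). For Cldn4 they were 1810062G17Rik and Abcb11 (0.998 and 0.996), for Cldn7 Arhgef18 and Rnf13 (0.994 and 0.992), for Cldn23 Prl2c3 and Lilr4b (0.997 and 0.996), and for Ocln Calr and Uprt (0.993 and 0.992). None of these was itself a member, and Tjp1, which passed in no comparison by its sum, is left out.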

How the data were processed

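Chromatin accessibility was measured by ATAC-seq in 6 libraries, 2 per group. The authors deposited 1 table of raw counts per peak of a consensus set, made with featureCounts 1.6.3 from paired reads reduced to their 5′ ends, without strand and with reads counted at every peak they overlap, per the file header. Per the submitters' processing notes, Trim Galore, BWA, Picard, SAMtools, MACS2 and the mm10 build were used. Peaks were assigned to genes with RefSeq GRCm38.p6. Counts were tested with edgeR 4.0.16 (R 4.3.3): TMM scaling, low counts removed with filterByExpr (89347 peaks kept, 1476 removed), 1 robust quasi-likelihood fit over all 6 libraries, Benjamini-Hochberg adjustment and a threshold of 0.05. The fit had 3 residual degrees of freedom. A median of 42.3 further degrees of freedom per peak came from spread pooled over peaks, so the p-values rest mostly on pooled spread. Standard errors are the log2 change divided by the root of F. CPM values use TMM-scaled totals. Summed counts per gene were tested in the same way over 16785 genes with their own scaling. DESeq2 1.42.0, other scalings, filters and assignments, a replicate block and leaving out each library were alternatives. The fit was tested on simulated data. All 9 members, with their gene-end peaks and the peak of smallest p in each comparison, were named, and members and lists were chosen with earlier results of these data known. The labels do not say whether replicate numbers pair the libraries. Deviations of same-numbered libraries correlated at 0.0036, -0.031 and 0.049. These values cannot tell whether libraries were paired, since those of vehicle and of AA differed by little more than counting error. Chi-square per degree of freedom between the libraries of a group was 1.10 for vehicle, 1.12 for AA and 1.55 for PGE2. Intervals of counting error are not given, since replicates carry the error.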

Additional observations from a re-analysis of the deposited data

How the results depend on the processing

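With DESeq2, the members called fell from 20 to 7 for AA against vehicle (7 higher, 0 lower, with 2 lower at an unadjusted p under 0.05), from 11 to 1 for PGE2 (1 higher, 0 lower, with 2 lower at an unadjusted p) and from 9 to 0 for AA against PGE2 (0 higher, with 7 at an unadjusted p). In the last comparison DESeq2 gave no adjusted p for the Tjp1 peak 111 kb upstream. All peaks called fell from 27281 to 9058, from 22257 to 7377 and from 8886 to 582, and genes by summed counts from 4 to 2 with AA and from 6 to 2 with PGE2 (Cldn2 and Cldn15, both lower). Counting only peaks within 10 kb left fewer peaks to call. The members called went from 20 to 9 with AA (7 higher, 2 lower). They went from 11 to 6 with PGE2 (5 higher, 1 lower) and from 9 to 3 for AA against PGE2 (3 higher, 0 lower). These counts come from a smaller set of member peaks, so they are not shares to set beside those of all peaks. Whether members keep a larger share than all peaks between AA and PGE2 within 10 kb was not tested. With PGE2, scaling gene-end and other peaks separately gave 5 higher and 5 lower members, and library totals gave 6 lower. Under library totals the peaks of the whole table split into 13725 higher and 14324 lower with AA (14911 and 12370 with TMM) and 11526 and 12127 with PGE2 (12809 and 9448). For genes, the peak table's scaling factors, added after the data were seen, turned 3490 higher and 2970 lower with PGE2 into 4514 and 1761, and 1455 and 1506 for AA against PGE2 into 812 and 1845. The Ocln sum changed sign within 10 kb, to -0.12 for AA against vehicle (edgeR adjusted p = 0.0331) and to -0.02 for AA against PGE2; the cause was not tested.

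Leaving out 1 library gave 13 to 22 member calls with AA (10 to 19 higher, 2 to 3 lower), 7 to 12 with PGE2 (6 to 9 higher, 1 to 4 lower) and 3 to 9 for AA against PGE2 (3 to 9 higher, 0 to 0 lower). All peaks called ranged over 18219 to 30456, 13667 to 21329 and 3072 to 9643, and member genes by sums over 2 to 5, 1 to 5 and 3 to 6. A fit with the replicate block, although the labels name no pairing, called 21 members with AA (18 higher, 3 lower), 11 with PGE2 (9 and 2) and 10 for AA against PGE2 (10 and 0). It kept all 40 calls at member peaks, and ended 1 of the 14 calls by sums, Cldn3 with AA; it gave 3, 6 and 5 genes by sums and 27630, 22672 and 9414 of all peaks. Median-ratio size factors and no filter ended none of the 54 calls. Counts of 8 to 2101 per member peak and library limit what can be seen at the weak distal peaks.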
